A study of Mus musculus with 38 samples.

Results

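The genes described here serve glucose breakdown and the response to low oxygen, and they were followed across mouse CD8 T cell clones in a resting and a stimulated state. The members were taken by gene symbol, as enzymes and transporters of glycolysis and targets or regulators of the hypoxia-inducible factor HIF. No value was a criterion, but earlier results of these data were known when the list was made. Of the 40 genes listed, 38 had a probe set with a gene name, and 37 of these were counted. The arrays held 23410 named probe sets, which name 21335 gene symbols in all. Gapdh, a glycolytic dehydrogenase, was measured only by probe sets that also name other genes, so it stays outside every count. Gpi1 and Eno1 were not analysed here. Where a gene had several probe sets with 1 symbol, the one with the highest mean was used.

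The 5 clones were cultured T cells, compared 14 h after stimulation on immobilised anti-CD3 antibody (145-2c11, coated at 0.5 ug/ml) and at rest, which the labels call activated and dormant. Clones sAg1 and sAg3 are IL13+ (the type named CD8γ13), clones 8uvmo-2 and 8uvmo-3 are IL13-negative (the type named Tc1), and CD8bm1 is an alloreactive conventional CD8 clone. All cells were kept in RPMI 1640 with FBS, with no other agent in the labels, and 100 ng of total RNA per array was labelled. The activated groups had 4 arrays per clone (20 arrays), and the dormant groups had 3 arrays each for sAg1 and sAg3 and 4 each for the other clones (18 arrays). The labels do not say whether the arrays of a group came from separate cultures, so p-values measure the spread between arrays, which may be technical. The fit pooled this spread over all 10 groups, but the median SD of a counted gene was 0.50 in dormant 8uvmo-2 and 0.08 in activated sAg1. An SE or p-value for 1 clone thus does not measure that clone's own spread. Each phenotype is 2 clones and the alloreactive type is 1 clone, so a difference between phenotypes cannot be told apart from a difference between those clones. The RNA is from bulk cells, and fewer cells expressing a gene and less RNA per cell cannot be told apart.

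Glycolysis turns glucose into pyruvate in the cytosol, and activated T cells are known to run it fast even with oxygen present, exporting the product as lactate. HIF is a transcription factor whose alpha subunit, Hif1a, is marked for destruction in normal oxygen by prolyl hydroxylases of the Egln family. When oxygen is short, or when T cell receptor signals raise Hif1a, the factor binds short ACGTG or GCGTG motifs near genes for glucose uptake, glycolytic enzymes, pH control, mitochondrial turnover and its own hydroxylases.

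Values are log2 signals, and a difference of 1 is a doubling. Array medians and highest values did not overlap between the states, so activation cannot be told apart from separate processing of the states. The array medians ran between 7.01 and 7.09 in the activated groups and between 6.58 and 6.70 in the dormant groups, so each difference was tested both on the deposited values and after centring every array on its median, and was called only where limma's adjusted p was under 0.05 with the same sign in both. For comparisons over several clones, the clone means also had to run the same way. The median activation difference over all probe sets was 0.35 (-0.05 after centring), and it depended on brightness: 0.57 for probe sets with a mean of 5 to 6, and -0.16 for those above 12. No background signal was available, and levels below about 7 lie near the median of all values (6.91), so differences against such levels may be understated. Cd3e (group means 12.50 to 13.44) and Cd8a (11.22 to 12.83) were high in every group, while Cd2, another T cell gene, was dim in dormant sAg3 (5.80) and dormant CD8bm1 (5.59). The array medians of the 15 macrophage and dendritic cell markers stayed between 5.31 and 6.83. Within that list, Lyz2, lysozyme, stood at 9.26 in dormant sAg1, against 4.95 to 6.02 in the other dormant groups, with Csf1r at 6.01, C1qa at 5.72 and Adgre1 at 4.97 in dormant sAg1. Its part in the sAg1 results below was not tested. The 4 dormant 8uvmo-2 arrays fell into sets: arrays 1 and 3 correlated at 0.9974 and arrays 2 and 4 at 0.9973, with 0.9858 to 0.9894 across the sets. Results in dormant 8uvmo-2 are also given without either set where it moves them.

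The promoters of the 4 members with the largest called falls in the mean of the 5 clones (Ddit4, Ankrd37, Kdm3a and Higd1a) are shown, with all 3 annotated promoters of Kdm3a. That of Car12 is added because it had the largest mean difference of the members (1.90), although it was not called since it fell in CD8bm1. Each sequence is the 250 bases before the annotated start (RefSeq, GRCm38.p6), with capitals marking ACGTG or GCGTG on either strand.
Ddit4 promoter, chr10:59951771-59952020, minus strand: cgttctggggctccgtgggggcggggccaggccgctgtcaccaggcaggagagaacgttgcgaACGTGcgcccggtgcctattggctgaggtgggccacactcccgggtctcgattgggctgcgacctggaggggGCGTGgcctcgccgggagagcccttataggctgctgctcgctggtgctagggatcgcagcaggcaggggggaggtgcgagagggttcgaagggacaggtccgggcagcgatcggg
Ankrd37 promoter, chr8:45999851-46000100, minus strand: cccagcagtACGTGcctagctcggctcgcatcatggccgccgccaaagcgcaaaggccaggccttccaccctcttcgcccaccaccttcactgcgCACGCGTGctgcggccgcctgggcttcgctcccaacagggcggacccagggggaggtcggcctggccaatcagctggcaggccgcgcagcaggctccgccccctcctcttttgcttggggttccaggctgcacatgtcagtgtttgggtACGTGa
Kdm3a promoter, chr6:71609140-71609389, minus strand: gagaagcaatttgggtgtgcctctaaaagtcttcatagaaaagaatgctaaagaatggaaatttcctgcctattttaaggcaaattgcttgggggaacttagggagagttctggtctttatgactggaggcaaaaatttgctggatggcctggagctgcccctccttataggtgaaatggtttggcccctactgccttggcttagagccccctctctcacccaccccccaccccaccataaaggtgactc
Kdm3a promoter, chr6:71632687-71632936, minus strand: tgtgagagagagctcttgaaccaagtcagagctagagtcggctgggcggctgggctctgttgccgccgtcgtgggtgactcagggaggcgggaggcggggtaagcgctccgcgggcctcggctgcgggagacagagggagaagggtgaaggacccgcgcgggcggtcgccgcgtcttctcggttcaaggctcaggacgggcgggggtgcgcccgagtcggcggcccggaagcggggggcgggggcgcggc
Kdm3a promoter, chr6:71632918-71633167, minus strand: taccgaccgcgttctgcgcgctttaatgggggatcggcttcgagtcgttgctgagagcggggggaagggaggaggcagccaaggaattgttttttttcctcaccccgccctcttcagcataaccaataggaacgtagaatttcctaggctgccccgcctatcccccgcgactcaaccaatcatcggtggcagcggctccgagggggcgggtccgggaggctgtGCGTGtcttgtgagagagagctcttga
Higd1a promoter, chr9:121857797-121858046, minus strand: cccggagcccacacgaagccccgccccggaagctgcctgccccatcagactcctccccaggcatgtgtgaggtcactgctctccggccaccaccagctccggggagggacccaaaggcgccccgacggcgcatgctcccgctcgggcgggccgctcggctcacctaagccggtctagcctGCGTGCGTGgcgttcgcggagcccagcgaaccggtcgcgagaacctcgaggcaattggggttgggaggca
Car12 promoter, chr9:66713436-66713685, plus strand: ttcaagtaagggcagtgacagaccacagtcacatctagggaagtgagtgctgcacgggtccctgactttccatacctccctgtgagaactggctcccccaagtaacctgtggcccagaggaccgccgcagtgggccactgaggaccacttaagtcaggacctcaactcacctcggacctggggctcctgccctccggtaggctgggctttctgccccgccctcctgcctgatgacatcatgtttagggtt
The Ankrd37 window held 4 motif positions and those of Ddit4 and Higd1a held 2 each. Of the 3 Kdm3a windows, 1 held 1 position and the others held none, so the 4 lowered members shown carried the motif in differing numbers. The window of Car12, which is not one of the lowered members, held none. Of the 2 members called higher, not shown here, P4ha2 held 3 positions and Eno2 none, so the motif was not confined to lowered members. The search covered both strands, and ACGTG also lies inside the E-box CACGTG, which other factors bind. Of the 48 promoters in the table for 34 of the 37 counted members, 37 (77.1%) held at least 1 position, against 12679 of 32851 promoters in all (38.6%), and 23 (47.9%) held 2 or more, against 5495 (16.7%) in all. Counted by gene, 31 of 34 members (91.2%) had a promoter with the motif, against 11226 of 27025 genes (41.5%). Tpi1, Eno2 and Car12 had no motif in this window. Slc2a3, Ndrg1 and Bnip3l are not in the promoter table. These matches describe the sequences, and no binding was measured. The members were listed as HIF targets and regulators or glycolytic genes, so a share above that of all genes is no independent result. The count by gene took the promoter with the most positions, and the genes compared were not matched for expression or base composition.

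Activation was asked first: which members changed with anti-CD3 in all 5 clones. The HIF target genes outside glycolysis gave most of the falls, and most glycolytic enzymes had no shared direction. Among the transporters, Slc16a1 (mean difference 0.75) rose in all 5 clones on the deposited values. After centring it was -0.20 in sAg3 and -0.29 in CD8bm1, so it was not called. Slc2a3 (0.64) and Slc16a3 (0.80) were also higher in the mean, but not in sAg3 (-0.33 and -8e-04). Of the 37 members, 2 were called higher (28.6% of all named probe sets were) and 9 lower (12.8% of all were). The member median was -0.07 (-0.47 after centring), against 0.35 (-0.05) for all probe sets. Bright probe sets shifted down in general, so the members with a mean of 9 or more were also set against probe sets of the same range: 0 of 28 rose (6.05% of all such probe sets did), 8 fell (31.3%), and the medians were -0.12 for members and -0.04 for all. Among all probe sets the members' share of falls was above the background, and among the bright ones it was not. At a difference of at least 1, no member rose (4.17% of all probe sets did) and 2 fell, Ddit4 and Ankrd37 (1.64%).

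Ddit4, which restrains the growth kinase mTORC1, had the largest fall. Its levels in activated arrays were 10.29, 10.29, 10.50 and 10.55 in sAg1, 10.31, 10.32, 10.25 and 10.30 in sAg3, and 10.10, 9.78, 9.63 and 9.92 in 8uvmo-2, with 10.59, 10.41, 10.83 and 10.06 in 8uvmo-3 and 10.63, 10.69, 10.58 and 10.41 in CD8bm1. Its levels in dormant arrays were 11.29, 11.41 and 11.50 in sAg1, 11.43, 11.41 and 11.43 in sAg3, and 10.98, 12.14, 11.50 and 12.36 in 8uvmo-2, with 11.38, 11.63, 11.79 and 11.82 in 8uvmo-3 and 12.46, 12.55, 12.43 and 11.99 in CD8bm1. Every activated array lay below every dormant array. The mean difference was -1.39 ± 0.08 (SE, n = 20 activated and 18 dormant arrays, limma adjusted p = 2.7e-17), and it was called in each clone, from -0.99 in sAg1 to -1.89 in 8uvmo-2.

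Kdm3a, a demethylase of histone H3, was also called lower in each of the 5 clones. The activated arrays read 9.57, 9.62, 9.62 and 9.48 in sAg1, 9.74, 9.72, 9.49 and 9.61 in sAg3, and 9.80, 9.75, 9.36 and 9.61 in 8uvmo-2, with 10.42, 10.18, 10.23 and 10.17 in 8uvmo-3 and 10.15, 10.20, 10.13 and 10.12 in CD8bm1. The dormant arrays read 10.28, 10.37 and 10.43 in sAg1, 10.71, 10.59 and 10.55 in sAg3, and 10.23, 11.01, 10.53 and 10.86 in 8uvmo-2, with 10.79, 11.03, 11.28 and 11.23 in 8uvmo-3 and 11.29, 11.43, 12.05 and 11.21 in CD8bm1. Within each clone the states did not overlap, while activated 8uvmo-3 arrays reached the lowest dormant arrays of sAg1 and 8uvmo-2. The mean difference was -0.99 ± 0.06 (limma adjusted p = 2.374e-16).

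Ankrd37, an ankyrin repeat protein gene strongly induced by HIF, fell in 3 clones and did not pass in sAg1 and 8uvmo-3. The activated arrays read 8.54, 8.30, 8.38 and 8.39 in sAg1, 9.46, 9.53, 8.95 and 9.62 in sAg3, and 8.80, 8.82, 8.36 and 8.78 in 8uvmo-2, with 8.31, 8.57, 8.36 and 8.37 in 8uvmo-3 and 9.60, 9.68, 9.26 and 9.49 in CD8bm1. The dormant arrays read 8.48, 8.60 and 8.51 in sAg1, 10.82, 10.67 and 10.74 in sAg3, and 8.13, 11.11, 10.17 and 11.36 in 8uvmo-2, with 7.89, 9.13, 9.82 and 10.06 in 8uvmo-3 and 11.62, 11.23, 11.84 and 10.50 in CD8bm1. Replicate 1 of dormant 8uvmo-2 and of dormant 8uvmo-3 lay below the activated arrays of its own clone, and the other dormant arrays of those clones lay above. The mean difference was -1.12 ± 0.19 (limma adjusted p = 1.513e-06), and it was -1.33 without dormant 8uvmo-2 arrays 1 and 3 and -0.91 without arrays 2 and 4.

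The other falls were smaller. Higd1a, a mitochondrial inner membrane protein, ranged over 7.86 to 8.65 (median 8.24) in activated arrays and 8.20 to 10.19 (median 9.44) in dormant arrays, a difference of -0.93 ± 0.09 (limma adjusted p = 3.428e-12). In sAg1 alone its difference was near 0 (activated mean 8.25, dormant mean 8.25), and leaving out 1 of 5 single sAg1 arrays (dormant 2 or 3, activated 1, 3 or 4) ended the shared direction and so the call, with values from -0.92 to -0.93. Bnip3l, a receptor for removal of mitochondria, ranged over 10.45 to 11.39 (median 11.19) in activated arrays and 11.51 to 12.74 (median 11.81) in dormant arrays, with no overlap. Its difference was -0.73 ± 0.08 (limma adjusted p = 1.028e-10). Ero1l (current symbol Ero1a), which forms disulfide bonds in the endoplasmic reticulum, ranged over 10.80 to 12.10 (median 11.32) in activated arrays and 10.48 to 13.31 (median 12.28) in dormant arrays. Its difference was -0.71 ± 0.09 (limma adjusted p = 1.76e-08), with 8uvmo-3 at -0.02, and the shared direction was lost without dormant 8uvmo-3 array 3 (-0.70) or 4 (-0.68) or activated 8uvmo-3 array 1 (-0.71). Egln1, the main HIF prolyl hydroxylase, fell by 0.71 ± 0.07 with sAg1 at -0.05, and Aldoa, the widely expressed aldolase, fell by 0.29 ± 0.04 with sAg1 at -0.01. The Aldoa call was lost without dormant sAg1 array 3 (-0.28). Hk1, a hexokinase, fell by 0.20 ± 0.02 on the probe set used, but its other probe set gave 0.14, so its direction is not settled.

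The risers were dim genes. P4ha2, an alpha subunit of collagen prolyl hydroxylase, ranged over 6.14 to 6.71 (median 6.39) in activated arrays and 5.25 to 5.77 (median 5.39) in dormant arrays. It rose by 0.97 ± 0.04 (limma adjusted p = 3.745e-21; 0.57 after centring). Eno2, an enolase isoform best known from neurons, ranged over 6.17 to 6.69 (median 6.37) in activated arrays and 5.47 to 5.95 (median 5.61) in dormant arrays. It rose by 0.75 ± 0.04 (limma adjusted p = 3.71e-19; 0.34 after centring). Neither gene's states overlapped, in a comparison where 27.2% of all probe sets had every activated array above every dormant one and 1.15% had every one below. All levels of both genes were in the dim range, where probe sets rose by 0.57 (mean of 5 to 6) and 0.52 (mean of 6 to 7) at the median.

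By role, none of the 4 transporters was called in the mean of the 5 clones. Of the 13 glycolytic enzymes counted, 1 rose (Eno2) and 2 fell (Hk1, Aldoa). None of the 3 flux regulators was called, 1 of 3 oxygen sensing genes fell (Egln1), and of the 14 other HIF targets 1 rose (P4ha2) and 6 fell. The median differences were 0.70 for transporters, -0.07 for enzymes, 0.51 for flux regulators, -0.71 for oxygen sensing genes and -0.44 for other HIF targets. The Gapdh probe set, which names 4 genes and read 14.02 to 14.39 near the top of the scale, had a difference of -0.02 ± 0.01 (limma adjusted p = 0.2487). After centring the difference was -0.42. By clone it was called lower in sAg3 (-0.14), 8uvmo-2 (-0.12) and CD8bm1 (-0.09), and not called in sAg1 (0.19) and 8uvmo-3 (0.07).

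**Figure D1:**
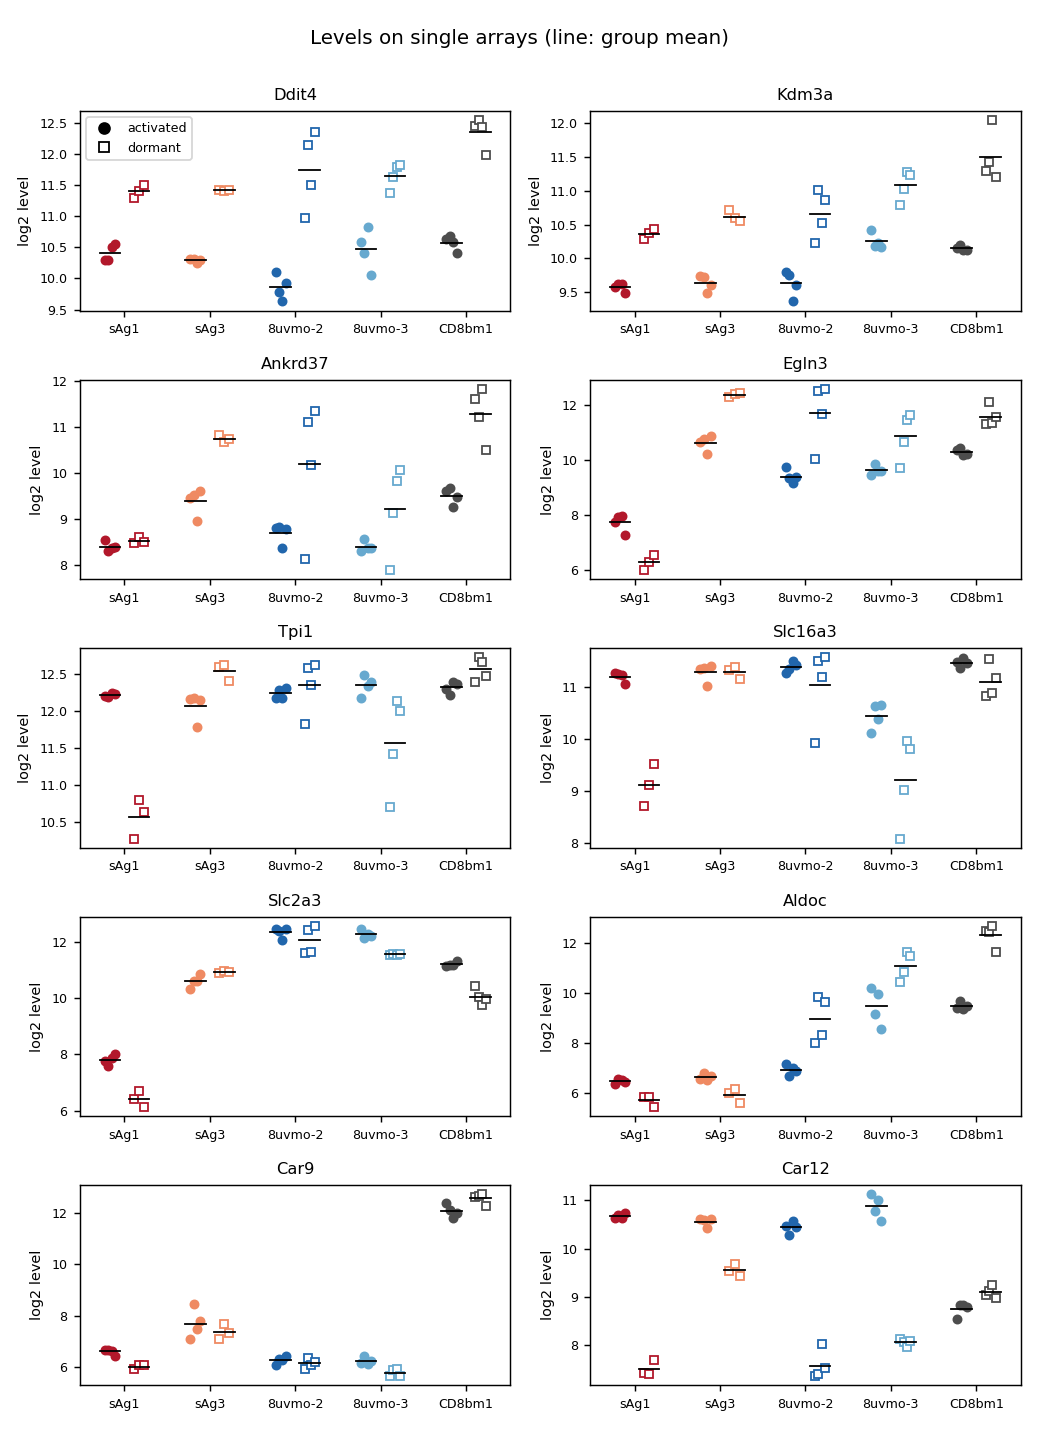
Log2 level of 10 genes on each array, with the 5 clones along the horizontal axis, activated arrays as filled circles left of dormant arrays as open squares, and a line at each group mean. Ddit4 lies lower in activated arrays of every clone, while Egln3, Tpi1 and Slc16a3 lie lowest in dormant sAg1.

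The clones were then taken 1 at a time, because several members moved in opposite directions in different clones. In sAg1, 14 of 37 members rose (27% of all probe sets did) and 3 fell (17.6%), with a member median of 0.59. In sAg3, 4 rose (22.7%) and 18 fell (14.1%), with a median of -0.34. In 8uvmo-2, 6 rose (31.3%) and 18 fell (19.3%), with a median of -0.23. In 8uvmo-3, 8 rose (31.3%) and 10 fell (19.2%), with a median of 0.20. In CD8bm1, 3 rose (27%) and 23 fell (18%), with a median of -0.51. The medians over all probe sets were alike in the 5 clones, between 0.33 and 0.38. Among the 28 members with a mean of 9 or more, 10 rose in sAg1 (16% of such probe sets did) and 3 fell (38.4%). In CD8bm1, 1 of them rose (8.74%) and 19 fell (40%), in sAg3 1 rose (4.15%) and 16 fell (36.1%), in 8uvmo-2 2 rose (16.7%) and 15 fell (41.2%), and in 8uvmo-3 4 rose (15.2%) and 8 fell (40.5%). Without dormant 8uvmo-2 arrays 1 and 3, the 8uvmo-2 counts were 3 higher and 23 lower, and without arrays 2 and 4 they were 6 higher and 14 lower. The cell cycle list, 15 genes measured to follow proliferation, had a median activation difference of 1.17 in sAg1, -0.28 in sAg3, -1.65 in CD8bm1, -1.59 in 8uvmo-2 and -0.86 in 8uvmo-3, and its part in these results was not tested.

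Across all 37 members, the share that fell was above the background in sAg3, 8uvmo-2, 8uvmo-3 and CD8bm1 and below it in sAg1. Among the bright members it was above the background in sAg3, 8uvmo-2 and CD8bm1, and below it in 8uvmo-3 and sAg1. Within a single clone, arrays without overlap are common: 55.1% to 61.2% of all probe sets had every activated array above every dormant one, and 14% to 18.6% had every one below. Among the members those counts were 26 and 5 in sAg1, 6 and 23 in sAg3, 6 and 13 in 8uvmo-2, 15 and 6 in 8uvmo-3, and 5 and 21 in CD8bm1, so a rise without overlap is the usual case over the whole array.

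Among the transporters, Slc16a3, the lactate exporter MCT4, rose in sAg1 and 8uvmo-3. It read 11.27, 11.25, 11.24 and 11.06 in activated sAg1, against 8.71, 9.11 and 9.51 in dormant sAg1. It read 10.12, 10.63, 10.39 and 10.65 in activated 8uvmo-3, against 8.08, 9.01, 9.96 and 9.81 in dormant 8uvmo-3. Activated and dormant arrays did not overlap in either clone. The differences were 2.10 ± 0.30 in sAg1 (limma adjusted p = 1.638e-07) and 1.23 in 8uvmo-3, while sAg3, already bright at rest with 11.33, 11.39 and 11.16, read 11.36, 11.38, 11.03 and 11.40 activated. Slc16a1, the lactate carrier MCT1, rose by 1.15 in sAg1, where it read 10.04, 10.02, 9.96 and 9.82 in activated arrays, against 8.73, 8.84 and 8.86 in dormant arrays. In 8uvmo-2 it read 10.00, 9.82, 10.28 and 9.78 in activated arrays, against 8.74, 8.89, 9.08 and 8.93 in dormant arrays, and in 8uvmo-3 8.91, 9.40, 9.23 and 9.41 activated, against 7.99, 7.91, 8.16 and 8.00 dormant. Its rises of 1.06 and 1.22 there had no overlapping arrays, and its values of 0.21 in sAg3 and 0.12 in CD8bm1 did not pass. Slc2a3, the high-affinity glucose transporter GLUT3, rose by 1.39 in sAg1 and 1.15 in CD8bm1, where it read 11.15, 11.18, 11.20 and 11.33 in activated arrays, against 10.44, 10.05, 9.78 and 9.99 in dormant arrays. Slc2a1, the glucose transporter GLUT1 known for its rise in activated T cells, passed in no clone, with differences from -0.39 in sAg3 to 0.63 in sAg1. Its activated group means lay between 12 and 12.35.

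Among the enzymes, Tpi1, the triose phosphate isomerase, moved in opposite directions in the IL13+ clones. It read 12.20, 12.19, 12.24 and 12.22 in activated sAg1, against 10.28, 10.80 and 10.64 in dormant sAg1. In sAg3 it read 12.16, 12.17, 11.78 and 12.14 in activated arrays, against 12.59, 12.62 and 12.40 in dormant arrays. The activated levels of the clones were close, and the dormant ones lay apart. The difference was 1.64 ± 0.19 in sAg1 (limma adjusted p = 4.647e-09) and -0.47 in sAg3, called in both. Pgam1, the phosphoglycerate mutase, was called higher in sAg1, with 13.08, 13.15, 13.14 and 13.05 in activated arrays against 11.31, 11.70 and 11.83 in dormant arrays, and in no other clone. Pkm, pyruvate kinase, rose by 1.04 in sAg1 and 0.72 in 8uvmo-3. Ldha, lactate dehydrogenase, had called differences of -0.28 in sAg3, -0.29 in CD8bm1 and -0.23 in 8uvmo-2. Pgk1, phosphoglycerate kinase, had -0.56, -0.50 and -0.52 in the same clones. Aldoc, the aldolase isoform of brain, fell in CD8bm1 (-2.82), 8uvmo-2 (-2.03) and 8uvmo-3 (-1.64), while its differences in sAg1 (0.77) and sAg3 (0.72), at dim levels, were not called.

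Eno2 was called higher in each clone. It read 6.40, 6.29, 6.61 and 6.22 in activated sAg3, against 5.70, 5.55 and 5.57 in dormant sAg3, and 6.21, 6.33, 6.35 and 6.35 in activated 8uvmo-2, against 5.52, 5.87, 5.62 and 5.74 in dormant 8uvmo-2. In CD8bm1 it read 6.69, 6.56, 6.49 and 6.54 activated, against 5.70, 5.78, 5.73 and 5.95 dormant. All of these are dim levels. Hk1, at the bright end, read 13.29, 13.35, 13.17 and 13.21 in activated sAg1, against 13.52, 13.62 and 13.51 in dormant sAg1, a small step without overlap. Its other probe set had a difference of 0.61 in sAg1, in the opposite direction.

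The flux regulators went in both directions. Pfkfb3, which makes the activator of phosphofructokinase, rose in 4 clones. It read 7.73, 7.75, 7.82 and 7.85 in activated sAg3, against 7.15, 7.06 and 7.08 in dormant sAg3. It read 8.82, 8.90, 8.75 and 8.85 in activated 8uvmo-2, against 7.75, 8.11, 7.87 and 8.29 in dormant 8uvmo-2, and 8.77, 8.65, 8.66 and 8.68 in activated 8uvmo-3, against 7.31, 7.31, 7.56 and 7.38 in dormant 8uvmo-3. The states did not overlap in these clones. Its differences were 1.31 in sAg1, 0.69 in sAg3, 1.30 in 8uvmo-3 and 0.83 in 8uvmo-2, and 0.14 in CD8bm1 did not pass. Pfkfb4, a related enzyme, rose from dim levels, with 6.33, 6.28, 6.35 and 6.41 in activated 8uvmo-2, against 5.69, 5.67, 5.53 and 5.78 in dormant 8uvmo-2. In 8uvmo-3 it read 6.62, 6.62, 6.53 and 6.54 activated, against 5.61, 5.82, 5.54 and 5.85 dormant. The called rises, in those clones and in sAg1, were 0.68 to 0.87. Pdk1, which limits entry of pyruvate into the citric acid cycle by inhibiting pyruvate dehydrogenase, fell in 4 clones, with -1.01 in 8uvmo-2, -0.77 in CD8bm1, -0.62 in sAg3 and -0.53 in 8uvmo-3. In 8uvmo-3 it read 9.76, 9.71, 9.78 and 9.48 in activated arrays, against 9.76, 10.02, 10.61 and 10.47 in dormant arrays, with overlap at dormant replicate 1.

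Egln3, a HIF prolyl hydroxylase that is itself a HIF target, had the widest split between clones of the 3 oxygen sensing genes. In sAg1 it read 7.75, 7.92, 7.95 and 7.28 in activated arrays, against 6, 6.30 and 6.53 in dormant arrays. In sAg3 it read 10.64, 10.74, 10.19 and 10.87 in activated arrays, against 12.26, 12.40 and 12.41 in dormant arrays. Egln3 rose in sAg1 and fell in sAg3, with no overlap in either. Its dormant sAg1 levels were in the dim range, and its rise in sAg1 was 1.04 after centring (limma adjusted p = 0.01569). In 8uvmo-2 it read 9.72, 9.32, 9.14 and 9.37 in activated arrays, against 10.02, 12.48, 11.65 and 12.58 in dormant arrays. In 8uvmo-3 it read 9.44, 9.83, 9.58 and 9.59 in activated arrays, against 9.70, 10.65, 11.44 and 11.62 in dormant arrays. In these clones the dormant arrays spread widely, and replicate 1 was the lowest of them. The differences were 1.45 ± 0.38 in sAg1 (limma adjusted p = 0.0007961), -1.75 in sAg3, -2.30 in 8uvmo-2, and -1.28 and -1.24 in CD8bm1 and 8uvmo-3. Hif1a rose by 0.74 ± 0.06 in sAg1 and was not called in the other clones, where its differences were 0.11 to 0.42.

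Car12, a surface carbonic anhydrase that controls pH, rose in 4 clones and fell in CD8bm1. It read 10.63, 10.70, 10.64 and 10.73 in activated sAg1, against 7.43, 7.40 and 7.69 in dormant sAg1. In sAg3 it read 10.62, 10.59, 10.42 and 10.60 activated, against 9.54, 9.69 and 9.44 dormant. The dormant level of sAg3 was well above that of sAg1, and the activated levels met. It read 10.46, 10.28, 10.57 and 10.44 in activated 8uvmo-2, against 7.37, 7.40, 8.02 and 7.53 in dormant 8uvmo-2, and 11.12, 10.78, 11.01 and 10.57 in activated 8uvmo-3, against 8.12, 8.06, 7.97 and 8.09 in dormant 8uvmo-3. In CD8bm1 the activated arrays read 8.54, 8.83, 8.83 and 8.79, all below the dormant arrays at 9.03, 9.13, 9.24 and 8.97. The differences were 3.17 ± 0.12 in sAg1 (limma adjusted p = 3.602e-21), 1.00 in sAg3, 2.81 in 8uvmo-3, 2.86 in 8uvmo-2 and -0.35 in CD8bm1.

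Bnip3, Bnip3l and Higd1a, all of them mitochondrial proteins, were called lower in sAg3, 8uvmo-2, 8uvmo-3 and CD8bm1. In sAg1 none of them was called, although Bnip3l had every activated array below every dormant one there (difference -0.34). Bnip3, a relative of Bnip3l, read 11.40, 11.53, 10.64 and 11.56 in activated sAg3, against 12.63, 12.70 and 12.59 in dormant sAg3. In 8uvmo-3 it read 10.57, 10.75, 10.74 and 10.61 activated, against 10.14, 11.12, 11.91 and 12.01 dormant, where dormant replicate 1 lay below every activated array. Its differences were -1.36 in sAg3, -1.20 in 8uvmo-2, -1.11 in CD8bm1 and -0.63 in 8uvmo-3, with 0.39 in sAg1 not called. Bnip3l in 8uvmo-2 read 11.18, 11.07, 10.45 and 11 activated, against 11.68, 12.74, 11.86 and 12.65 dormant. Higd1a read 8.36, 8.40, 7.98 and 8.54 in activated sAg3, against 9.65, 9.70 and 9.63 in dormant sAg3, and 8.33, 8.16, 7.86 and 8.04 in activated 8uvmo-2, against 8.87, 10.19, 9.41 and 10.07 in dormant 8uvmo-2. In CD8bm1 it read 8.38, 8.65, 8.47 and 8.64 activated, against 9.67, 10.10, 10.17 and 9.46 dormant. The Higd1a falls in these clones were without overlap, while in sAg1 Higd1a read 8.24, 8.40, 8.24 and 8.11 activated, against 8.20, 8.27 and 8.28 dormant. Ero1l read 11.76, 11.73, 11.63 and 11.80 in activated sAg3, against 12.74, 12.90 and 12.81 in dormant sAg3, without overlap. Ndrg1 was called in opposite directions in different clones. Ndrg1, a stress-induced gene, read 9.86, 10.11, 9.57 and 9.41 in activated sAg1, against 7.98, 8.14 and 8.20 in dormant sAg1. In CD8bm1 it read 8.92, 8.56, 8.78 and 8.74 activated, against 10.21, 10.51, 10.98 and 10.26 dormant. It rose by 1.63 in sAg1, was called at -1.74 in CD8bm1 and -1.02 in 8uvmo-2, and passed in neither sAg3 nor 8uvmo-3. P4ha2 rose in each clone, with 6.33, 6.40, 6.43 and 6.45 in activated sAg3, against 5.42, 5.61 and 5.47 in dormant sAg3, and 6.24, 6.14, 6.32 and 6.37 in activated 8uvmo-2, against 5.43, 5.70, 5.38 and 5.73 in dormant 8uvmo-2. It read 6.34, 6.22, 6.18 and 6.53 in activated 8uvmo-3, against 5.33, 5.45, 5.28 and 5.77 in dormant 8uvmo-3, and 6.52, 6.40, 6.38 and 6.19 in activated CD8bm1, against 5.39, 5.37, 5.25 and 5.25 in dormant CD8bm1. Adm, the vasodilator peptide adrenomedullin, was dim and passed in no clone.

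The sizes in 8uvmo-2 depended on which dormant arrays were used, since arrays 2 and 4 were higher than arrays 1 and 3 for most members. Of the 24 members called in this clone, 23 kept the sign of the difference without either set. The exception was Ndrg1, at -2.08 without dormant arrays 1 and 3 and 0.04 without arrays 2 and 4. Egln3 had -3.14 without dormant arrays 1 and 3 and -1.45 without arrays 2 and 4, and Ankrd37 had -2.55 and -0.46 in the same order. Ddit4 had -2.39 and -1.38, Aldoc -2.83 and -1.23, and Higd1a -2.03 and -1.04. Car12 (2.97 and 2.74) and Slc16a1 (1.06 and 1.06) hardly moved.

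**Figure D2:**
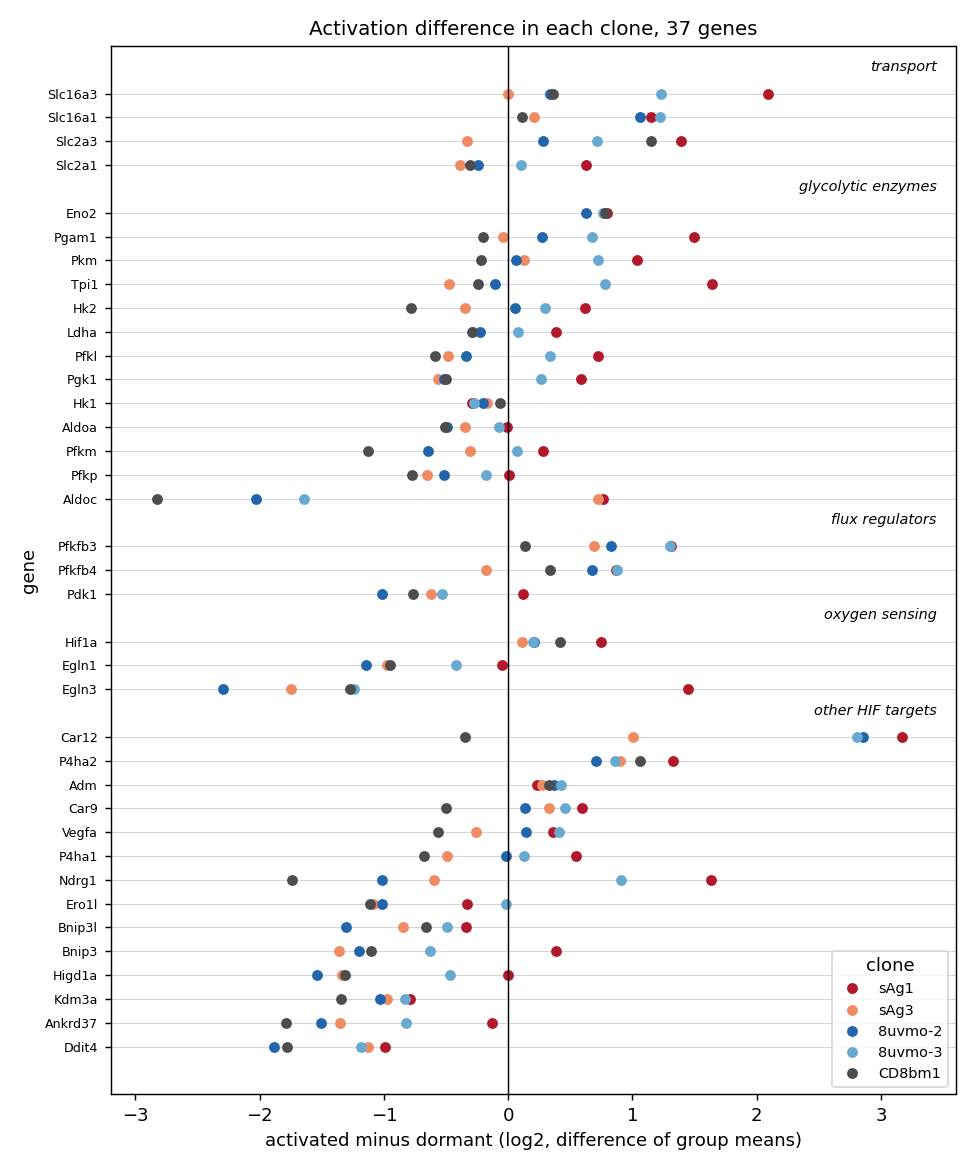
Activated minus dormant difference of group means (log2) for 37 genes, grouped by role, with 1 colour per clone. Ddit4 and Kdm3a lie left of 0 in all 5 clones, while sAg1 lies right of 0 for Egln3, Tpi1 and Slc16a3.

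The IL13+ clones (sAg1 and sAg3) were set against the IL13-negative clones (8uvmo-2 and 8uvmo-3) to ask whether the phenotypes differ in these genes. Aldoc was far lower in both dormant IL13+ clones, Slc2a3 was far lower in sAg1 and less so in sAg3, and few other members passed. Among dormant clones, 1 of 37 members was higher (10.9% of all probe sets) and 3 were lower (8.78%). The member median was -0.14, against 0.03 for all probe sets, and the share of members called lower was near the background. These counts depended on the IL13+ clone, since the clones lay on opposite sides for many members: without sAg1, 17 members were higher, and without sAg3, 22 were lower. Arrays of the phenotypes did not overlap for 2 members, Slc2a3 and Aldoc, both lower (3.52% of all probe sets were lower without overlap, and 2.77% higher). The cell cycle list moved with this comparison, with 13 of its 15 genes lower in dormant IL13+ clones and a median of -1.49. Of 9 T cell markers 2 were higher and 2 lower there (Cd2 at -2.90 and Lat at -1.50), and of 15 macrophage and dendritic cell markers 2 were higher and 2 lower (Itgam at -2.93 and Cd68 at -1.09). The part of these lists was not tested.

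Slc2a3 read 6.43, 6.70 and 6.12 in dormant sAg1 and 10.89, 10.99 and 10.93 in dormant sAg3, against 11.61, 12.43, 11.67 and 12.59 in dormant 8uvmo-2 and 11.56, 11.58, 11.54 and 11.59 in dormant 8uvmo-3. The IL13+ arrays were all lower, but sAg3 lay closer to the IL13-negative clones while sAg1 lay far below. The difference was -3.14 ± 0.12 (n = 6 and 8 arrays, limma adjusted p = 1.878e-21), -3.36 without dormant 8uvmo-2 arrays 1 and 3 and -2.93 without arrays 2 and 4. After activation, Slc2a3 read 7.76, 7.60, 7.87 and 8.00 in sAg1 and 10.32, 10.61, 10.61 and 10.87 in sAg3, against 12.47, 12.40, 12.09 and 12.46 in 8uvmo-2 and 12.47, 12.14, 12.28 and 12.24 in 8uvmo-3. The arrays again did not overlap, and the difference was -3.11 ± 0.11 (n = 8 and 8 arrays, limma adjusted p = 3.804e-22).

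Aldoc read 5.83, 5.85 and 5.43 in dormant sAg1 and 6.01, 6.15 and 5.59 in dormant sAg3, against 8.00, 9.84, 8.32 and 9.67 in dormant 8uvmo-2 and 10.47, 10.84, 11.66 and 11.49 in dormant 8uvmo-3. Both IL13+ clones sat in the dim range. The difference was -4.23 ± 0.24 (limma adjusted p = 1.306e-16), with -3.83 without dormant 8uvmo-2 arrays 2 and 4. In activated cells Aldoc read 6.35, 6.55, 6.54 and 6.44 in sAg1 and 6.57, 6.79, 6.51 and 6.68 in sAg3, against 7.16, 6.67, 7.01 and 6.87 in 8uvmo-2 and 10.22, 9.15, 9.97 and 8.56 in 8uvmo-3. Activated 8uvmo-2 had come close to the IL13+ clones and 8uvmo-3 had not. The activated difference was -1.65 ± 0.22 (limma adjusted p = 2.035e-07), and without clone 8uvmo-3 it was -0.37 (limma adjusted p = 0.2758).

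The remaining dormant calls were small. Kdm3a differed by -0.38 ± 0.11 (limma adjusted p = 0.003583), and was not called without dormant 8uvmo-2 array 2 (-0.32) or 4 (-0.35), without both (-0.24), or without clone sAg1 (-0.25) or 8uvmo-3 (-0.17). Adm, dim in all arrays, differed by 0.22 ± 0.08 (limma adjusted p = 0.03387), and lost the call without any of 8 single arrays, at 0.16 to 0.22. Those were dormant sAg1 arrays 1, 2 and 3, dormant sAg3 arrays 2 and 3, dormant 8uvmo-2 array 3 and dormant 8uvmo-3 arrays 1 and 3.

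Among activated clones, 5 members were higher (8.36% of all probe sets) and 3 were lower (6.86%). The member median was 0.05, against 0.02 for all probe sets, the members' shares were not far above the background, and the 15 cell cycle genes gave no call in this comparison. Of the T cell markers 1 was higher and 2 lower, and of the macrophage and dendritic cell markers 2 were higher and 0 lower, with their part not tested. The 2 members without overlap were Slc2a3 and Ndrg1, both lower (2.06% of all probe sets). Car9, a surface carbonic anhydrase and classic HIF target, ranged over 6.45 to 8.44 (median 6.90) in activated IL13+ arrays and 6.09 to 6.45 (median 6.27) in activated IL13-negative arrays, touching at 6.45. It was higher by 0.89 ± 0.12 (limma adjusted p = 1.415e-07), and it was highest in sAg3, where it read 7.10, 8.44, 7.47 and 7.78. Ndrg1 ranged over 9.28 to 10.11 (median 9.58) in activated IL13+ arrays and 10.31 to 11.36 (median 10.75) in activated IL13-negative arrays. Its difference was -1.17 ± 0.25 (limma adjusted p = 0.0002438).

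Ero1l ranged over 11.22 to 11.80 (median 11.51) in activated IL13+ arrays and 10.80 to 11.26 (median 11.01) in activated IL13-negative arrays. It was higher by 0.52 ± 0.15 (limma adjusted p = 0.005377). Pdk1 was higher by 0.33 ± 0.11 and Egln1 by 0.31 ± 0.11, and P4ha2 by 0.23 ± 0.06. These smaller calls rested on single clones or arrays: without sAg3 the values were 0.31 for Ero1l, 0.15 for Pdk1 and 0.12 for Egln1, and without sAg1 that of P4ha2 was 0.11, none of them called. Without clone 8uvmo-3 the values of Ero1l (0.41), Pdk1 (0.32) and Egln1 (0.31) were also not called. Pdk1 lost the call without activated 8uvmo-3 array 4 (0.29), and Egln1 without activated sAg1 array 1 (0.30), sAg3 array 4 (0.28), 8uvmo-2 array 3 (0.30) or 8uvmo-3 array 4 (0.30).

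The size of the activation difference was then compared between phenotypes. It was higher in IL13+ clones for 2 of 37 members (6.23% of all probe sets) and lower for 0 (5.97%). Aldoc differed by 2.58 ± 0.33 (limma adjusted p = 1.966e-07), with falls called in both IL13-negative clones. In both dormant IL13+ clones Aldoc was already dim (5.43 to 6.15), so a fall there could have been missed. P4ha2 differed by 0.33 ± 0.09 (limma adjusted p = 0.008177), at 0.12 once sAg1 was left out and 0.26 once 8uvmo-2 was, and it lost the call without any of 5 single arrays (dormant sAg3 1 or 3, dormant 8uvmo-3 4, activated 8uvmo-3 2 or 3), at 0.28 to 0.32. The cell cycle list moved with it, with 12 of 15 genes higher and a median of 1.57, and its part was not tested. With the 2 clone means of each phenotype as the only replicates, 0 members passed in any of these comparisons, with limma adjusted p of 0.8822 for dormant Slc2a3 and 0.7477 for dormant Aldoc.

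More members were called between the IL13+ clones and the alloreactive clone CD8bm1 than between IL13+ and IL13-negative clones, but under a looser rule. It asked only that both IL13+ clone means lie on the same side of this 1 clone. More of all probe sets were called as well. Dormant, 1 of 37 members was higher (17.2% of all probe sets) and 23 were lower (17.9%), with a member median of -0.76 against 0.01 for all probe sets. The share lower was above the background and the share higher below it. The cell cycle list moved with this comparison too (14 of 15 genes lower, median -2.34), and its part was not tested. Activated, 3 were higher (12.5%) and 10 were lower (11.8%), with a member median of -0.18. Dormant calls covered 2 of 4 transporters, 9 of 13 enzymes, 2 of 3 flux regulators and 10 of 14 other HIF targets as lower, and Hif1a as higher.

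Car9 was the clearest of these. It read 6.68, 6.69, 6.65 and 6.45 in activated sAg1 and 7.10, 8.44, 7.47 and 7.78 in activated sAg3, against 12.37, 12.10, 11.79 and 12 in activated CD8bm1. Dormant, it read 5.94, 6.07 and 6.07 in sAg1 and 7.10, 7.68 and 7.33 in sAg3, against 12.63, 12.64, 12.72 and 12.26 in CD8bm1. CD8bm1 alone was bright, in both states, and the IL13-negative clones read 5.67 to 6.45 over both states. The difference was -4.91 ± 0.14 activated (limma adjusted p = 1.052e-24) and -5.86 ± 0.15 dormant (limma adjusted p = 2.138e-26).

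Aldoc in CD8bm1 read 9.43, 9.71, 9.37 and 9.51 activated and 12.51, 12.44, 12.71 and 11.65 dormant, and the differences of the IL13+ clones were -2.95 activated and -6.52 dormant. Hif1a went the other way, with 12.48, 12.49, 12.48 and 12.43 in activated sAg1 and 11.58, 11.60, 11.59 and 11.56 in activated sAg3, against 11.11, 10.91, 10.94 and 10.86 in activated CD8bm1. It was higher in the IL13+ clones by 1.07 ± 0.05 activated (limma adjusted p = 2.627e-19) and 1.06 ± 0.05 dormant (limma adjusted p = 1.13e-18), with no overlap. Vegfa, the vessel growth factor, read 9.64, 9.68, 9.66 and 9.90 in activated sAg1 and 9.40, 9.46, 9.36 and 9.56 in activated sAg3, against 10.41, 10.29, 10.29 and 10.37 in activated CD8bm1, and 9.30, 9.39 and 9.39 in dormant sAg1 and 9.76, 9.69 and 9.65 in dormant sAg3, against 11.10, 10.76, 11.35 and 10.41 in dormant CD8bm1. All IL13+ arrays were lower in both states. Its differences were -0.76 activated and -1.38 dormant. Pfkm, the muscle phosphofructokinase, read 7.24, 7.30 and 7.19 in dormant sAg1 and 8.22, 8.42 and 8.04 in dormant sAg3, against 8.95, 9.29, 9.28 and 9.30 in dormant CD8bm1, all lower, with a difference of -1.47. Ndrg1 read 7.98, 8.14 and 8.20 in dormant sAg1 and 10.09, 10.33 and 10.01 in dormant sAg3, against 10.21, 10.51, 10.98 and 10.26 in dormant CD8bm1. Its dormant sAg3 arrays overlapped those of CD8bm1, and the difference was -1.37. In activated cells Ndrg1 read 9.86, 10.11, 9.57 and 9.41 in sAg1 and 9.52, 9.28, 9.58 and 9.79 in sAg3, against 8.92, 8.56, 8.78 and 8.74 in CD8bm1, all higher, by 0.89. Slc16a1 read 10.04, 10.02, 9.96 and 9.82 in activated sAg1 and 9.68, 9.66, 9.38 and 9.51 in activated sAg3, against 10.46, 10.44, 10.59 and 10.50 in activated CD8bm1, and its differences were -0.74 activated and -1.30 dormant. Both IL13+ clones lay below CD8bm1 on every array. Ankrd37, with the values given above, differed by -1.66 in dormant cells. Slc2a3 was called only in the activated comparison (-2.01), and Car12 was higher there (1.87). Whether these activated and dormant differences differ from each other was not tested.

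Because sAg1 and sAg3 share a phenotype but moved apart above, they were compared with each other, a comparison chosen after the values were seen. Dormant sAg1 had lower levels than dormant sAg3 for 26 of 37 members (13.7% of all probe sets) and higher levels for 2, Pfkfb3 and Hif1a (18.6%). The member median was -1.09, against -0.03 for all probe sets, and the share lower was above the background. All 4 transporters and 10 of 13 enzymes were among the lower ones. Egln3 differed most, with 6, 6.30 and 6.53 in dormant sAg1 against 12.26, 12.40 and 12.41 in dormant sAg3 (difference -6.08 ± 0.40, limma adjusted p = 8.564e-15). Slc2a3 differed by -4.52 ± 0.18 and Slc16a3 by -2.18 ± 0.32, on the arrays given above. Pfkfb4 read 5.76, 5.50 and 5.43 in dormant sAg1, against 7.81, 8.01 and 7.54 in dormant sAg3, a difference of -2.22 ± 0.11. Ankrd37, Car12, Ndrg1, Tpi1, Bnip3 and Pgam1 differed by -2.21 to -1.70. Beside these values, 5 of 15 cell cycle genes were lower in dormant sAg1 with a list median of -1.10. Of the 15 macrophage and dendritic cell markers, 7 were higher and 0 lower, among them Lyz2 as given above. The middle level of the T cell markers was 10.71 in dormant sAg1 and 11.93 in dormant sAg3 (10.77 and 11.51 activated), while gene by gene 2 of 9 were higher and 2 lower, with a median difference of 0.04. The part of these lists was not tested. Arrays without overlap numbered 30 lower and 2 higher members, against 22.6% and 23.2% of all probe sets.

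Activated, fewer members were called: 4 were higher in sAg1 (18.9% of all probe sets) and 5 lower (12.9%), with a member median of -0.07. Egln3 (-2.89), Slc2a3 (-2.80), Pfkfb4 (-1.17), Car9 (-1.08) and Pfkm (-0.40) were lower in sAg1. Pfkfb3 (1.31), Hif1a (0.89), Slc16a1 (0.40) and P4ha2 (0.24) were higher. Pfkfb3 read 8.99, 8.94, 9.10 and 9.35 in activated sAg1, against 7.73, 7.75, 7.82 and 7.85 in activated sAg3, and 7.73, 7.68 and 7.94 in dormant sAg1, against 7.15, 7.06 and 7.08 in dormant sAg3. Pfkfb4 read 6.41, 6.43, 6.49 and 6.41 in activated sAg1, against 7.30, 7.68, 7.80 and 7.64 in activated sAg3. Neither gene's clones overlapped. The difference between the clones' activation responses was called for 25 members, all higher in sAg1 (11.2% of all probe sets), and for 0 lower (11.5%). Its largest values were 3.19 ± 0.53 for Egln3 (limma adjusted p = 1.709e-05), 2.23 ± 0.53 for Ndrg1 and 2.17 ± 0.17 for Car12. All 4 transporters, 9 of 13 enzymes and all 3 flux regulators were among the 25. At rest, activated and in their response, these comparisons share arrays, so their values describe the same levels.

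Over all 5 clones, the members differed among dormant clones in 33 of 37 cases by limma's F test (59.2% of all probe sets), the exceptions being Hk1, Eno2, Adm and P4ha2. The exception of Hk1 rests on the probe set used, since its other probe set did differ among dormant clones (limma adjusted p = 1.496e-09) and had a difference of -1.01 between dormant sAg1 and dormant sAg3. Among activated clones 24 of 37 differed (52.1%). Both shares were above the background. Those that did not pass when activated included Slc2a1, Aldoa, Tpi1, Pgk1, Pgam1, Pkm and Ldha. The range of the 5 clone means was narrower in activated than in dormant cells for 32 of 37 members (86.5%), against 63.1% of all probe sets, and for 25 of the 28 with a mean of 9 or more (89.3%), against 62.3% of such probe sets. The median range of members was 0.57 in activated and 1.37 in dormant cells, while over all probe sets it was 0.31 and 0.38. Without any 1 clone, between 31 and 33 members were narrower when activated. Without sAg1 it was 32, with median ranges of 0.55 activated and 1.00 dormant, and without either set of dormant 8uvmo-2 arrays it was 33 or 31. No test was made of these ranges, and separate processing of the states cannot be told apart from activation here either.

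Several core enzymes closed up on activation. Tpi1 ranged over 0.28 among activated clones and 1.98 among dormant clones, Pgam1 over 0.42 and 1.70, and Pkm over 0.24 and 1.07. P4ha1, another collagen hydroxylase subunit, ranged over 0.19 activated and 1.24 dormant. Some members stayed far apart in both states: Car9 ranged over 5.82 activated and 6.78 dormant, Slc2a3 over 4.55 and 5.66, Aldoc over 3.04 and 6.62, and Egln3 over 2.89 and 6.08. Car12 (2.12 activated, 2.05 dormant), Hif1a (1.52, 1.51), P4ha2, Eno2 and Hk1 (on the probe set used) were wider in activated cells.

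**Figure D3:**
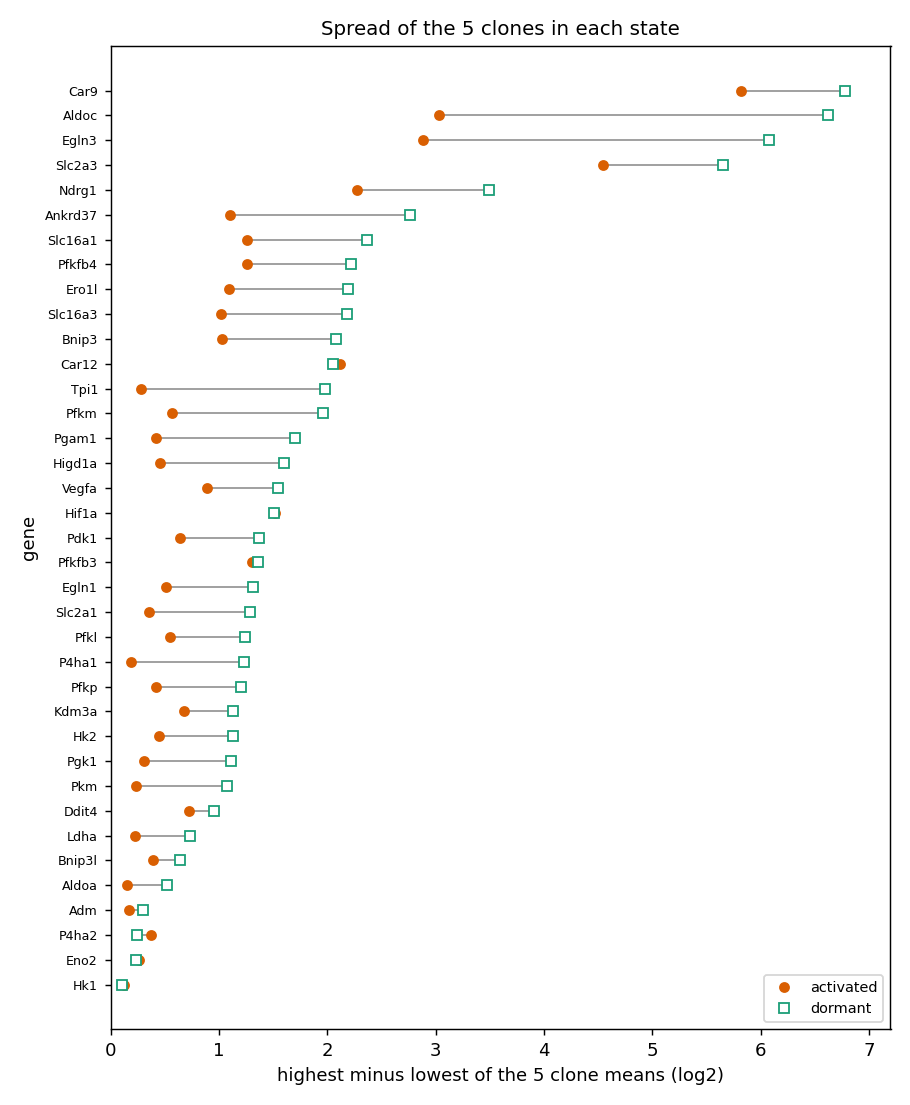
Highest minus lowest of the 5 clone means (log2) for each of 37 genes, activated as filled circles and dormant as open squares. The activated point lies left of the dormant point for 32 genes, and Car9, Slc2a3, Aldoc and Egln3 keep wide ranges in both states.

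Within groups, the members moved together from array to array, by the most in dormant cells of 3 clones. In dormant 8uvmo-2, 3, 34, 4 and 34 of the 37 members lay above the group mean in replicates 1 to 4, with median deviations of -0.52, 0.35, -0.11 and 0.34. In dormant 8uvmo-3 the counts were 1, 6, 31 and 31, and in dormant CD8bm1 they were 14, 30, 30 and 5. The median SD of a member was 0.50 in dormant 8uvmo-2, 0.25 in dormant 8uvmo-3 and 0.24 in dormant CD8bm1, against 0.08 to 0.12 in the other 7 groups. All probe sets had 0.12, 0.10 and 0.14 in those 3 groups in the same order, and 0.09 to 0.12 in the other 7. Smaller joint shifts occurred elsewhere, with 5, 29 and 29 members above the group mean in dormant sAg1, 16, 27 and 6 in dormant sAg3, and 23, 30, 9 and 30 in activated sAg3, where the median deviations lay between -0.10 and 0.05. Beside this, the cell cycle list had array medians of 10.90, 8.88, 11.14 and 8.20 in dormant 8uvmo-2 in the same order, high where the members were low. In dormant 8uvmo-3 those medians were 9.60, 9.07, 8.83 and 8.87, also high where the members were low. They did not follow this order in dormant CD8bm1 (9.69, 10.80, 9.88 and 11.29) or dormant sAg3 (9.23, 8.15 and 7.97). In dormant sAg1 they were 7.05, 7.14 and 7.73, lowest where the members were low. Activated arrays of all clones read 7.67 to 9.72. The part of the cell cycle in these deviations was not tested.

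**Figure D4:**
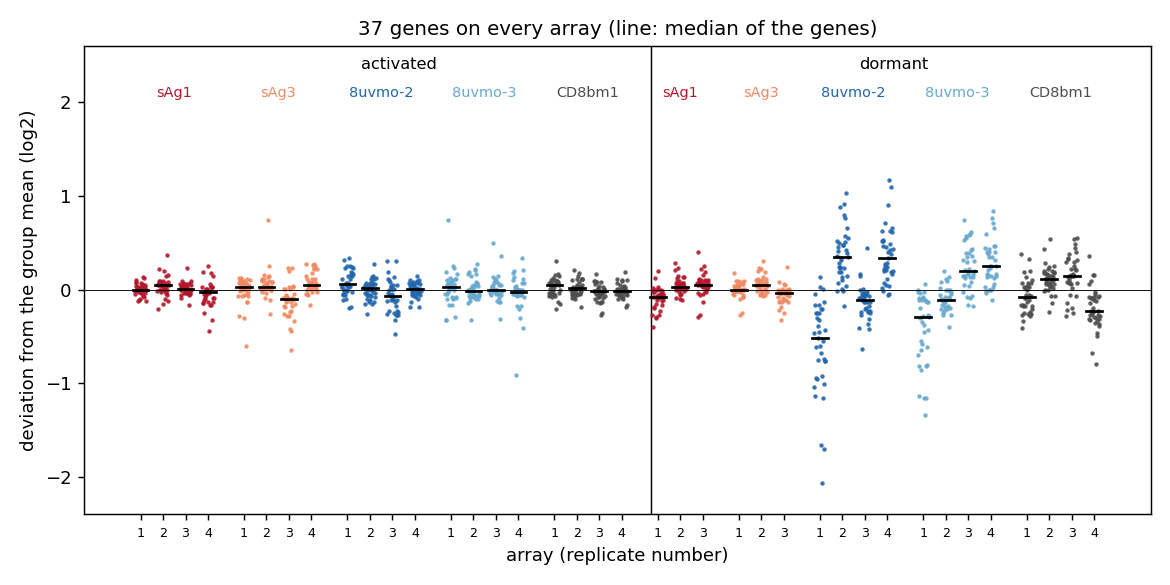
Deviation of each of 37 genes from its group mean (log2) on every array, activated groups left and dormant groups right, with a line at the median. Dormant 8uvmo-2 replicates 2 and 4 lie above 0 and replicate 1 below it, and the medians of activated arrays lie between -0.10 and 0.06.

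Genes of the same pathways outside the member list were described next. On activation, 9 of 32 further glucose metabolism genes rose and 3 fell, with a median of 0.40. Gpd2, the mitochondrial glycerol phosphate dehydrogenase, rose by 1.54, Ldhc, a testis lactate dehydrogenase, by 1.09 and Pklr, the liver and red cell pyruvate kinase, by 1.07. Ldhc and Pklr were dim, with means of 5.33 and 6.55 over all arrays, and rose by 0.69 and 0.66 after centring. Before centring, probe sets with means of 5 to 6 and 6 to 7 rose by 0.57 and 0.52 at the median. Most of the 9 risers had means in this dim range. Slc2a9, a urate and hexose transporter, fell by 1.19. Of 38 further hypoxia genes, 5 rose and 8 fell (median 0.09), with Nrn1, neuritin, at 2.43 and Cxcr4, a chemokine receptor, at -2.43. Gbe1, the glycogen branching enzyme, fell by 1.42, and Ccng2, a cyclin of arrested cells, by 1.21. Of 11 HIF subunits and regulators, 3 rose and 2 fell. Epas1, the HIF-2 alpha subunit, rose by 1.11. The other risers were Arnt2 (0.77) and Hif3a (0.58), with means of 7.06 and 5.65 over all arrays. Siah1a fell by 0.61, and Vhl, the ligase subunit that removes HIF alpha, by 0.51. Of 8 pentose phosphate genes, none rose and 2 fell, among them Prps2, which makes the nucleotide precursor PRPP (-0.92). The shares of all probe sets called in this comparison are the 28.6% and 12.8% given above.

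Between phenotypes, Nrn1 was lower in activated IL13+ clones (difference -4.92, limma adjusted p = 1.538e-28). Hmox1, haem oxygenase, differed by -1.35 and Errfi1, a feedback inhibitor of EGF receptor signalling, by -1.32 there, and Tmem45a by 1.46. In dormant clones, Tmem45a (2.27) and Pam, a peptide amidating enzyme (1.22), were higher in the IL13+ clones, while Stc2, stanniocalcin (-1.37), Mt2, a metallothionein (-1.36), and Gbe1 (-1.18) were lower. Over the 4 lists outside the members, dormant calls were 4 higher and 3 lower of 32 glucose genes, 3 and 5 of 38 hypoxia genes, 2 and 1 of 11 HIF genes and 0 and 2 of 8 pentose phosphate genes. Activated calls were 2 and 3, 1 and 6, 1 and 1, and 1 and 0 in the same order. The shares of all probe sets were 10.9% higher and 8.78% lower dormant and 8.36% and 6.86% activated, and most of these counts are near them. Mpc1, the mitochondrial pyruvate carrier, was lower in the IL13+ clones in both states (-0.86 activated, -0.81 dormant).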

How the data were processed

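The series matrix values are log2 probe set signals deposited by the submitters for 38 Affymetrix arrays, with Partek and RMA named per the submitters' processing notes. The scale was read from the values, which run over 2.14 to 14.76 for named probe sets. Whether all arrays were normalized together is not known. The highest value of an array was 14.31 to 14.46 in the activated groups and 14.53 to 14.76 in the dormant groups. Probe sets were paired with symbols through the platform annotation, and the 23410 with a name were tested. Array intensity precision is limited by the number of arrays.

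A model with 10 groups (clone by state) was fitted with limma 3.58.1 (trended eBayes) in R 4.3.3, tables and figures with Python 3.11.15. Benjamini-Hochberg adjustment ran over all named probe sets, and no filter on dim probe sets was applied. Called members with the largest differences, up to 6 per direction, are named with array values, and up to 3 genes per direction for each list outside the members. Members and lists were chosen with earlier results of these data known. The sAg1 against sAg3 comparison, the other Hk1 probe set, the spread of clone means without a clone, and the 8uvmo-2 counts without array sets were chosen after seeing the data. On simulated data with 200 of 23410 probe sets changed, the activation fit recovered 98% at a log2 change of 0.5 and 100% at 1 and 2. The false calls were 8, 4 and 6 in that order. The simulation had independent noise, the same size of change in all clones and no general shift between the states. Its recovery therefore does not cover the shift or the clone differences in these data.

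Of 18 pairs of activated and dormant arrays with the same clone and number, 7 had deviations correlating above 0.1 (range -0.24 to 0.27). All 4 pairs of 8uvmo-2 did (0.11 to 0.24), as did sAg3 replicate 1 (0.27) and CD8bm1 replicates 1 (0.12) and 4 (0.14). The labels state no pairing, so whether the numbers pair arrays is not known. Alternatives were other scalings, a minimum difference, a filter at a mean of 7, untrended eBayes, array weights, gene means over probe sets, a replicate block, clone means as replicates, and leaving out arrays or clones. Promoters came from RefSeq, with the start as annotated there. Protein sequences were not used here.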

Additional observations from a re-analysis of the deposited data

Results flagged for a closer look

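Of 296 sets of 4 arrays (a member in a group), 18 (6.08%) had 1 array far from the other 3 by Dixon's ratio at its critical value for 4 arrays; chance alone gives about 1 in 20. In activated sAg1, replicate 4 was lowest for Slc16a3 at 11.06 (others 11.24 to 11.27), Pfkl at 10.18 (10.32 to 10.34), Hif1a at 12.43 (12.48 to 12.49) and Car9 at 6.45 (6.65 to 6.69), and highest for Vegfa at 9.90 (9.64 to 9.68). In activated sAg3, replicate 3 was lowest for Slc16a3 at 11.03 (11.36 to 11.40), Tpi1 at 11.78 (12.14 to 12.17), Ldha at 13.21 (13.33 to 13.34), Pdk1 at 9.92 (10.27 to 10.31), Car12 at 10.42 (10.59 to 10.62) and P4ha1 at 11.09 (11.22 to 11.24). In activated 8uvmo-2, Eno2 was lowest in replicate 1 at 6.21 (6.33 to 6.35) and Ankrd37 in replicate 3 at 8.36 (8.78 to 8.82). Pgam1 was lowest in activated 8uvmo-3 replicate 3 at 13.12 (others 13.15). In activated CD8bm1, Pfkm was highest in replicate 3 at 8.24 (8.00 to 8.04), Pfkfb4 highest in replicate 2 at 6.92 (6.77 to 6.78) and Car12 lowest in replicate 1 at 8.54 (8.79 to 8.83). In dormant CD8bm1, Pfkm was lowest in replicate 1 at 8.95 (9.28 to 9.30).

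Activation responses that differed between groups by the fitted difference were Aldoc (2.58) and P4ha2 (0.33), IL13+ minus IL13-negative clones. Aldoc was dim in both dormant IL13+ clones (5.43 to 6.15), where a fall could have been missed. Tpi1 (2.11) and Egln3 (3.19), sAg1 minus sAg3, were called in opposite directions in the 2 clones.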

How the results depend on the processing

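Counts are members called higher or lower, with the reported count first. Activation, 2 higher: deposited values alone 6, quantile normalization 6, a difference of at least 1 gave 0, no condition on clones 8, without CD8bm1 4. Activation, 9 lower: centred values alone 14, at least 1 gave 2, no condition 16. Dormant IL13+ against IL13-negative, 1 higher: at least 1 gave 0, no condition 6, the filter at a mean of 7 gave 0, clone means 0, without sAg1 17, sAg3 0, 8uvmo-2 5, 8uvmo-3 0, and without dormant 8uvmo-2 arrays 1 and 3 it was 0, without 2 and 4 it was 3. Its 3 lower: no condition 9, clone means 0, without sAg3 22, without 8uvmo-3 7. Activated, 5 higher: at least 1 gave 0, clone means 0, without 8uvmo-2 8. Activated, 3 lower: no condition 5, clone means 0, without sAg1 5, sAg3 6, 8uvmo-2 7, and 5 without either set of dormant 8uvmo-2 arrays. Difference in activation, 2 higher: at least 1 gave 1, no condition 5, filter 1, clone means 0, without sAg1 1, sAg3 17, 8uvmo-2 1, 8uvmo-3 12. Its 0 lower: no condition 3, without sAg1 6, without 8uvmo-2 3, without 8uvmo-2 arrays 2 and 4 1. Against CD8bm1: dormant 1 higher gave 2 under quantile normalization, dormant 23 lower gave 11 at a difference of at least 1, and activated 10 lower gave 3. Single clones, deposited alone: sAg1 higher 23 for 14, 8uvmo-3 higher 15 for 8 (15 under quantile normalization), CD8bm1 higher 6 for 3. Centred alone: sAg1 lower 8 for 3, sAg3 lower 28 for 18, 8uvmo-3 lower 16 for 10. A difference of at least 1: sAg1 lower 0, sAg3 higher 1 and lower 6, 8uvmo-2 higher 2, 8uvmo-3 higher 4 and lower 3, CD8bm1 lower 10; 8uvmo-2 higher was 3 without dormant arrays 1 and 3. For sAg1 against sAg3, at least 1 gave 0 for the 2 dormant higher, 1 for the 4 activated higher and 14 for the 25 of the response, and quantile normalization 9 for the 5 activated lower.

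Leaving out 1 array at a time gave, as lowest to highest: activation 2 to 2 higher and 7 to 10 lower; dormant phenotypes 0 to 1 and 3 to 4; activated phenotypes 3 to 6 and 3 to 5; difference 1 to 4 and 0 to 0; against CD8bm1 dormant 1 to 2 and 19 to 25, activated 2 to 3 and 8 to 11; sAg1 13 to 14 and 3 to 3; sAg3 3 to 4 and 15 to 22; 8uvmo-2 5 to 6 and 16 to 20; 8uvmo-3 6 to 11 and 7 to 12; CD8bm1 3 to 3 and 21 to 25; sAg1 against sAg3 dormant 2 to 2 and 25 to 26, activated 3 to 4 and 5 to 8, response 23 to 28 and 0 to 0; among clones 33 to 34 dormant and 21 to 25 activated.

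Of 25 named results, the replicate block kept the call of 25 and moved no count by over 1.5 times (activation 2 higher). In 8uvmo-2, the 1 clone where all pairs of the same number correlated above 0.1, the block gave the same 6 higher and 18 lower. Array weights and untrended eBayes kept 25 of 25, quantile normalization 23 (Hk1 and Aldoa lost) and probe set means 23 (Hk1 -0.03, Higd1a -0.62). The other Hk1 probe set gave 0.14 in place of -0.20. Clone means as replicates lost 14. The cause of these changes was not tested. The number of arrays, and dim levels under 7, limit the precision.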
